A study of Rattus norvegicus with 9 samples.

Results

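The protein-coding genes of the rat femur were compared between 3 libraries from femurs with an injured distal growth plate (GPI) and 3 from sham-operated femurs (Sham), all taken 7 days after surgery. A gene entered when its deposited row was annotated as protein-coding and held at least 10 counts in at least 3 of these 6 libraries, which 14105 of 23098 protein-coding rows and of 31125 gene rows did. The rule used read depth only and no difference between the groups, but a gene near the minimum could enter through the group in which it was high. At the edge of the rule, 112 genes had exactly 10 counts in the library that ranked 3 by count and a highest count of 10 to 59, and 107 protein-coding genes left out had 9, with a highest count of 9 to 27.

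Bulk RNA was sequenced from whole femurs of male rats, 3 per group, after poly(A) selection. Sham femurs had a sham operation and no growth plate lesion. GPI femurs had the lesion modelled in the distal femoral growth plate and no treatment. The other group of 3 femurs, GMTT, had the lesion and a hydrogel of GelMA, a gelatin made curable by methacrylate groups, with TPGS and tea polyphenols. GMTT values are set beside the others as a description only, because a comparison of GMTT with GPI would share the GPI libraries. The labels call the femurs intact; strain, age, the depth of the lesion and how much muscle or marrow was kept with the bone are not stated there. They name 3 rats per group without saying whether RNA was pooled; the p-values therefore reflect only how these libraries vary, which may be technical.

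The growth plate is the cartilage near the end of a growing long bone. Resting chondrocytes feed columns of proliferating cells, which enlarge through prehypertrophic and hypertrophic stages before the cartilage is replaced by bone. After a lesion, repair is usually described as an inflammatory phase, then a fibrogenic phase in which mesenchymal cells and fibrous matrix fill the defect, then bone formation at the site and remodelling. The gene lists below follow these zones and phases, and a further set covers muscle, which surrounds the femur.

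The 6 libraries held between 15927429 and 19715997 counts, as did the GMTT libraries. Correlations of log2 CPM (counts scaled to a common library size) across genes were 0.992 to 0.995 within Sham or GPI and 0.566 to 0.570 between them, so the groups lay far apart and their replicates close together. Scaling factors by TMM, the trimmed mean of M values, were 1.296 to 1.298 in Sham and 0.5906 to 0.5928 in GPI. When only library sizes are used, this gap shifts the log2 fold changes by a median of -1.13, and by as little as -0.30 in genes with no count in 1 group. Most genes between 0 and 1.13 higher in GPI on the TMM scale are therefore lower on the other. Levels below are TMM-normalised CPM per library, and changes are log2 fold changes of GPI against Sham with an approximate standard error (SE). The SE is the size of the change divided by the square root of the F statistic of edgeR's quasi-likelihood test. Confidence intervals are built from it. Where 1 group has few counts this SE can be too small, and counting error alone can exceed it. A gene is said to have risen or fallen when its Benjamini-Hochberg adjusted p over all 15999 genes tested was below 0.05.

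Most protein-coding genes differed between injured and sham femurs. Of the 14105 genes, 12565 (89.1%) were called, 5987 (42.4%) higher and 6578 (46.6%) lower in GPI. Large changes were common: 2274 genes rose and 2413 fell at least 4-fold, and 281 rose and 588 fell at least 64-fold. TMM scaling itself places the middle of the distribution near 0, and the median log2 fold change was -0.10. The quartiles were -1.26 and 1.20, and the 5th and 95th percentiles -5.58 and 4.29. A further 1540 genes were not called, and 1850 had a 95% confidence interval within 0.5 log2 of 0. In 6002 genes (42.6%) every GPI library lay above every Sham library and in 6602 (46.8%) every GPI library lay below.

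**Figure D1:**
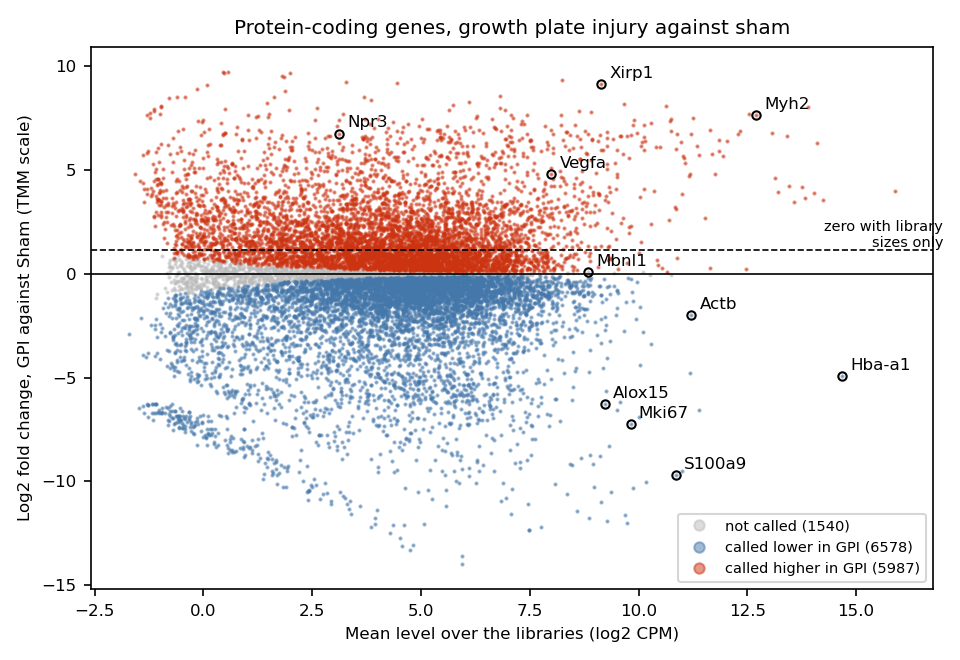
Log2 fold change of GPI against Sham (y axis, TMM scale) against the mean log2 CPM over the libraries (x axis, a log scale) for each of the 14105 genes, with 5987 called higher in red, 6578 called lower in blue and 1540 not called in grey. The dashed line at 1.13 marks where the zero line would lie with library sizes only; the band of blue points that slopes down at the lower left holds genes with few or no counts in GPI.

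With library sizes only, the same test called 3175 genes (22.5%) higher and 9937 (70.5%) lower, with a median of -1.23. All 3175 were also higher on the TMM scale and all 6578 lower genes were lower on both, while 1880 genes were called in opposite directions. Directions of the genes and lists below are given on the TMM scale, with the other split beside them where it moves. The counts of each list stand against 42.4% higher and 46.6% lower over all genes. Groups that did not overlap were as common over all genes, with GPI above in 42.6% and below in 46.8%.

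Genes of single tissues moved with the groups, in opposite directions for muscle and marrow. Summed over a fixed marker list, skeletal muscle genes took 0.258% to 0.273% of all counts in the Sham libraries and 13.2% to 13.4% in GPI, with 14 of 14 tested markers higher. Mitochondrially encoded genes took 3.80% to 4.19% in Sham and 25.8% to 27.3% in GPI. Adipocyte markers took 0.0264% to 0.0280% and 0.161% to 0.166%, and tendon and synovium markers 0.00787% to 0.00857% and 0.0474% to 0.0490%. Each of these 4 shares was higher in every GPI library than in any Sham library. Of 10 tested adipocyte markers 8 were called higher and 2 lower, and all 9 tested tendon and synovium markers were called higher.

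The shares of blood and bone markers were lower in GPI. Erythroid markers took 7.98% to 8.91% of counts in Sham and 0.213% to 0.218% in GPI, neutrophil markers 1.01% to 1.09% and 0.000543% to 0.000634%, monocyte and macrophage markers 0.582% to 0.622% and 0.00873% to 0.00937%, and B lymphocyte markers 0.121% to 0.123% and 0.00127% to 0.00159%. Osteoclast markers took 0.109% to 0.115% and 0.00567% to 0.00571%. Osteoblast and osteocyte markers, which define the labelled tissue, kept more of their share, with 0.695% to 0.749% in Sham and 0.332% to 0.351% in GPI, and all 12 were detected in both groups. On the TMM scale 11 of these 12 were called lower and 1 higher, as were 11 and 1 of 12 erythroid markers. Of 10 osteoclast markers 8 were called lower and 1 higher. Vpreb1 of B cell precursors and the osteoclast fusion gene Ocstamp had no count in GPI.

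Chondrocyte markers were scarce in both groups, at 0.0161% to 0.0181% of counts in Sham and 0.00708% to 0.00732% in GPI. Of 14 such markers 13 were detected in each group: Cnmd, chondromodulin, had no count in Sham, and Matn1, matrilin 1, had none in GPI. Shares are of all counts, as with library sizes only, while calls are on the TMM scale, so the 2 differ by the shift given above. On the TMM scale 5 of 10 tested chondrocyte markers were called higher and 3 lower, beside the lower summed share. Endothelial markers took 0.0470% to 0.0494% and 0.0566% to 0.0593%, Schwann cell markers 0.0202% to 0.0208% and 0.0117% to 0.0124% with 6 of 10 called higher and 4 lower, and epidermal markers 0.000759% to 0.000986% and 0.000433% to 0.000558%, with Krt5 of basal keratinocytes at 0 in both groups and the desmosome gene Dsg1 at 0 in GPI. In the GMTT libraries muscle markers took 2.42% to 2.59% and erythroid markers 4.30% to 4.72%, between the other groups. Not every class lay between them. Neutrophil markers took 1.21% to 1.26% in GMTT and osteoblast and osteocyte markers 0.925% to 1.01%, above both other groups. These shares stand beside every result below, and their part in the results was not tested. In bulk tissue, fewer cells of a type and less RNA per cell cannot be told apart, and neither can the lesion and the make-up of the pieces taken.

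**Figure D2:**
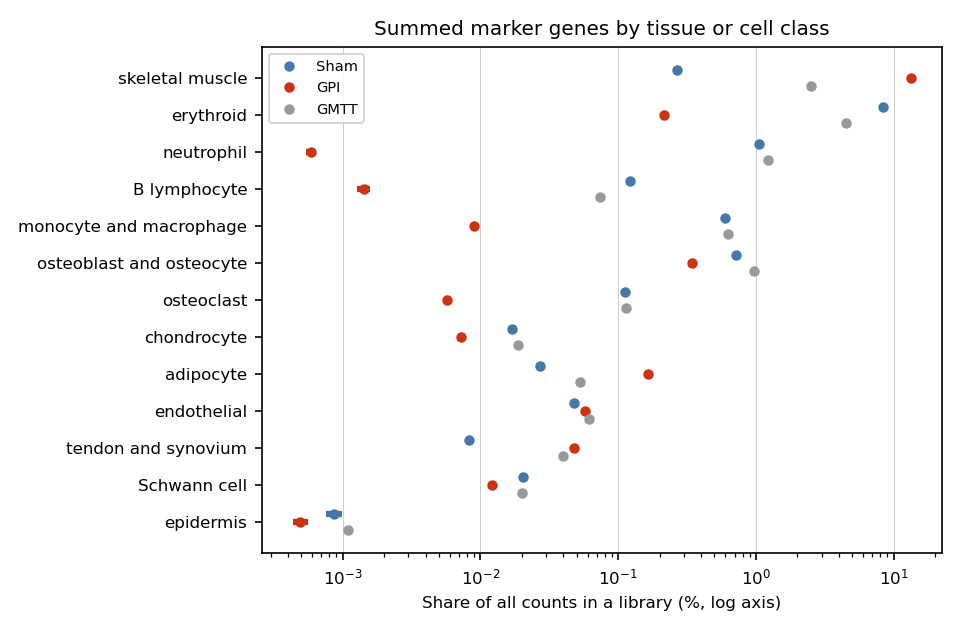
Share of all counts in a library (x axis, percent on a log scale) taken by the summed markers of 13 tissue or cell classes (y axis) in Sham (blue), GPI (red) and GMTT (grey). A line runs from the lowest to the highest library, with the point at their geometric midpoint. Skeletal muscle reaches 13.2% to 13.4% in GPI against 0.258% to 0.273% in Sham, and neutrophil markers show the widest gap in the other direction.

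The most abundant transcripts changed with these shares. Per gene length, the alpha globin gene Hba-a1 led in Sham, at 58500, 50000 and 51700 TPM (length-scaled units), against 609, 664 and 630 in GPI. The mitochondrial cytochrome oxidase gene Mt-co1 led in GPI, at 114000, 110000 and 114000 TPM, against 19600, 20200 and 18600 in Sham. Acta1, skeletal muscle actin, stood at 35100, 37600 and 34200 TPM in GPI and 1210, 1150 and 1290 in Sham, and was the highest nuclear gene in GPI. Reads of Hba-a1 can be shared with neighbouring alpha globin copies, so its level is uncertain.

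Among the 20 largest rises were genes of striated muscle. Xirp1, which encodes an actin-binding protein of muscle attachment sites, stood at 3.15, 3.10 and 2.54 CPM in Sham and at 1710, 1670 and 1650 in GPI, a log2 fold change of 9.16 (SE 0.07). Myf6 (ENSRNOG00000004878; mRatBN7.2 chromosome 7, 42812792 to 42814852), a myogenic transcription factor of mature fibres, stood at 1.31, 0.989 and 0.545 CPM and at 348, 361 and 356, a change of 8.55 (SE 0.10). The giant sarcomere gene Ttn, titin, went from 162 to 173 CPM in Sham to 37900 to 46800 in GPI (8.01, SE 0.08). The ranges of the groups did not overlap for any of the 3.

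The same 20 genes also held transcription factors, a receptor and other genes that are not sarcomere parts. Sim2 (9.22, SE 0.24) and Barx2 (9.20, SE 0.16) encode transcription factors that were near the limit of detection in Sham, with 4 and 9 counts over 3 libraries, and reached 37.0 to 43.5 and 79.4 to 90.4 CPM in GPI. Nr4a3, an orphan nuclear receptor, stood at 0.582, 0.688 and 0.681 CPM in Sham and 189, 178 and 190 in GPI (8.14, SE 0.10). Trim63, the muscle ubiquitin ligase MuRF1, rose from 1.81 to 2.31 CPM to 411 to 423 (7.66, SE 0.08), and Crhr2, a receptor for urocortins, by 7.69 (SE 0.18). Sln, sarcolipin, a small inhibitor of the calcium pump, rose by 8.52 (SE 0.19). Crhr2 and Sln had only 11 and 9 counts over the Sham libraries.

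Among the 20 largest falls were genes of blood cells. Ifitm6, a gene of the interferon-induced transmembrane family, stood at 80.0, 89.0 and 79.3 CPM in Sham and had no count in GPI, which puts it at least 924.1-fold lower against a floor of 3 counts over the group. Prss34 and Prss29, serine proteases of the mast cell tryptase family, were likewise at 0 in GPI. From 55.9 to 65.9 CPM in Sham, Prss34 was at least 662.9-fold lower, and from 65.9 to 71.8 CPM, Prss29 at least 758.1-fold. The eosinophil granule genes Prg2, major basic protein, and Epx, eosinophil peroxidase, changed by -12.02 (SE 0.10) and -11.79 (SE 0.11). They had only 14 and 9 counts over the GPI libraries, so these SEs can be too small. The set also held Sh2d5, Foxi2, Tmprss3 and Abca13, all at 0 in GPI, which puts them at least 332.4-fold, 317.5-fold, 262.8-fold and 196.2-fold lower.

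Complete loss of counts was mostly in 1 direction. In all, 230 of the 14105 genes had no count in GPI, and 229 of these had counts in GMTT. Only 16 had no count in Sham, all of which had counts in GMTT; among them Pax7, the transcription factor that marks muscle satellite cells, had 185 counts in GPI, at 5.00, 6.51 and 4.99 CPM, and was at least 120.8-fold higher. A group with no count sets only a bound, which covers counting error alone. A gene with no count in 1 group entered only through the other group. Library sizes after TMM scaling were 10222557 to 11682588 in GPI and 20624406 to 23255900 in Sham, which favours zeros in GPI at an equal level.

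Promoter sequences are shown for 4 of these genes, picked because they hold a match to a short motif of muscle or blood cell regulators. Of the 20 largest rises 13 had a sequence and 7 of these held a muscle motif; of the 20 largest falls 16 had one and 3 held AGATAA. They come from RefSeq on build GRCr8, matched by symbol for 10808 of 14058 gene symbols, and cover 250 bases before the start, 5′ to 3′ on the gene's strand, so their coordinates differ from the mRatBN7.2 coordinates of the count table. Capitals mark a MEF2 motif in Xirp1 (chr8:128635012-128635261, minus strand) and Myf6 (chr7:44701314-44701563, minus strand), the E-box CAGCTG in Trim63 (chr5:151816986-151817235, plus strand), and the GATA motif AGATAA, here on the other strand, in Ifitm6 (chr1:205547921-205548170, minus strand).
Xirp1: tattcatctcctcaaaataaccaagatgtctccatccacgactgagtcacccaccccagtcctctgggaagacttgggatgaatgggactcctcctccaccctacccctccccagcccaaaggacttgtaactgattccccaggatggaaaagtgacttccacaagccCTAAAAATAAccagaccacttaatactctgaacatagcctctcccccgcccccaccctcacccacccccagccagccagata
Myf6: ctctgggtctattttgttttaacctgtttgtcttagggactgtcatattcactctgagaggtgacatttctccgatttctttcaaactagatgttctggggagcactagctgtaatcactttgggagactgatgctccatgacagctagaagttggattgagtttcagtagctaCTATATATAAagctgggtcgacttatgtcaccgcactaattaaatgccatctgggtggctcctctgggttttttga
Trim63: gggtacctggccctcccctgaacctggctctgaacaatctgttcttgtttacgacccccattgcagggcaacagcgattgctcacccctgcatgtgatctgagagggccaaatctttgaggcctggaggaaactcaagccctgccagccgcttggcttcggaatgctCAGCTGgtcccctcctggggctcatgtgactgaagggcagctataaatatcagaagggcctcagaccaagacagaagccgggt
Ifitm6: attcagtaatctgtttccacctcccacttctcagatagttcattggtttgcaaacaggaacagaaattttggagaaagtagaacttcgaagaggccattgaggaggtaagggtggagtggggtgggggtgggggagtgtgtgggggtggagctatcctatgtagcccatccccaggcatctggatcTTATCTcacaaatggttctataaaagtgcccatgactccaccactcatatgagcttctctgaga

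The matches began 82, 76, 83 and 64 bases before the start in these 4 promoters. Over all 10808 matched promoters of the same length, 1.54% held the MEF2 motif on either strand, against 6.73% of 594 promoters of genes at least 16-fold higher in GPI and 1.34% of 822 promoters of genes at least 16-fold lower. The E-box CAGCTG was in 12.7% of all, 20.5% of the higher and 12.5% of the lower set. AGATAA was in 5.86% of all, 9.26% of the higher and 10.6% of the lower set, so its share was above the whole in both. The serum response motif CArG was in 1.24%, 2.02% and 1.46%, the E2F motif TTTCCCGC in 1.71%, 0.505% and 1.34%, and the E-box CACGTG of the clock and MYC factors in 7.87%, 6.23% and 4.99%. Each motif was searched on both strands and by itself, so matches to different motifs can share bases; the shares are descriptions with no test.

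Genes of the growth plate zones did not move as a block. Of 11 tested resting zone genes 7 rose and 2 fell, with a median log2 fold change of 1.18 (with library sizes only 3 rose and 5 fell, median 0.05). Of 15 proliferating zone genes 7 rose and 4 fell (median 0.66; with library sizes only 1 and 8, median -0.46), and of 13 prehypertrophic genes 9 rose and 2 fell (0.81; with library sizes only 3 and 6, -0.32). Hypertrophic zone genes had the opposite balance, with 5 higher and 11 lower of 16 (median -0.90; with library sizes only 4 and 12, -2.04). Over all 14105 genes 42.4% rose, 46.6% fell and the median was -0.10. The 7 of 15 proliferating zone genes that rose lay near the share over all genes. The proliferating and prehypertrophic medians thus changed sign with the scaling, the resting zone median came close to 0, and the hypertrophic median was negative on both.

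In the resting zone list, Pthlh, the signal that holds chondrocytes in the proliferating pool, stood at 0.097, 0.043 and 0.136 CPM in Sham and 1.21, 1.97 and 1.57 in GPI (log2 4.02, SE 0.47, from 6 counts in Sham). The secreted Wnt inhibitor Sfrp5 rose by 5.58 (SE 0.44) from 5 counts in Sham to 132 in GPI. Grem1, gremlin, an inhibitor of bone morphogenetic proteins, fell from 9.70, 9.93 and 11 CPM to 2.67, 1.88 and 2.05 (-2.21, SE 0.16), and the Wnt inhibitor Wif1 fell by 1.60 (SE 0.10). Pthlh and Sfrp5 thus rose from very few counts, and Grem1 and Wif1 fell from higher levels.

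The cartilage matrix genes Col2a1 and Matn3 of the proliferating zone list fell. Col2a1, the main collagen chain of cartilage, stood at 14.5, 12.7 and 14.1 CPM in Sham and 3.97, 3.85 and 3.52 in GPI (-1.86, SE 0.13). Matn3 (ENSRNOG00000056141; mRatBN7.2 chromosome 6, 31748474 to 31768101), matrilin 3, stood at 1.02, 0.860 and 0.635 CPM in Sham and 0.172, 0.0856 and 0.0978 in GPI (-2.74, SE 0.56, 55 counts against 4). Fgfr3, the receptor that restrains chondrocyte proliferation, rose from 8.44, 7.22 and 8.76 CPM to 19.0, 19.2 and 18.1 (1.21, SE 0.10) but differed by 0.07 and was not called with library sizes only. Other matrix genes did not reach the count minimum: Col9a1 had 28 counts over the Sham libraries and 3 over GPI, Snorc 12 and 2, and Epyc 3 and 2.

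In the prehypertrophic list Pth1r fell and Ptch1 was not called. Pth1r, the receptor for PTHrP, fell from 20.4, 18.8 and 20.5 CPM to 8.71, 8.73 and 8.12 (-1.22, SE 0.10). Ptch1, the hedgehog receptor, stood at 12.8, 13.9 and 12.1 CPM in Sham and 12.7, 13.5 and 12.5 in GPI, a difference of -0.00 with a 95% confidence interval of -0.21 to 0.20; with library sizes only it was 1.14 lower. The hedgehog ligand gene Ihh had 10 counts in Sham and 3 in GPI and was not tested. Fgf18 rose by 4.58 (SE 0.28) from 14 counts in Sham to 176 in GPI.

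In the hypertrophic list the collagen that marks the zone rose, while a collagenase and a mineral-binding matrix gene fell. Col10a1 (ENSRNOG00000051399; mRatBN7.2 chromosome 20, 38182494 to 38189494) stood at 2.33, 1.46 and 1.45 CPM in Sham, 13.8, 15.5 and 15.0 in GPI and 1.36, 1.31 and 1.30 in GMTT, a rise of 3.08 (SE 0.15) in GPI. It lies within Nt5dc1 on the opposite strand, and the strand setting of the counting is unknown; Nt5dc1 moved the other way, from 15.3, 17.5 and 15.8 CPM to 6.12, 6.33 and 5.18 (-1.46, SE 0.12). Mmp13, a collagenase of hypertrophic cartilage and bone, fell from 317, 333 and 305 CPM to 5.95, 3.94 and 5.48 (-5.96, SE 0.09), and Spp1, osteopontin, by 4.54 (SE 0.06). Panx3, a channel protein of hypertrophic chondrocytes and osteoblasts, fell from 2.67, 3.18 and 3.09 CPM to 1.03, 0.514 and 0.587 (-2.05, SE 0.28).

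**Figure D3:**
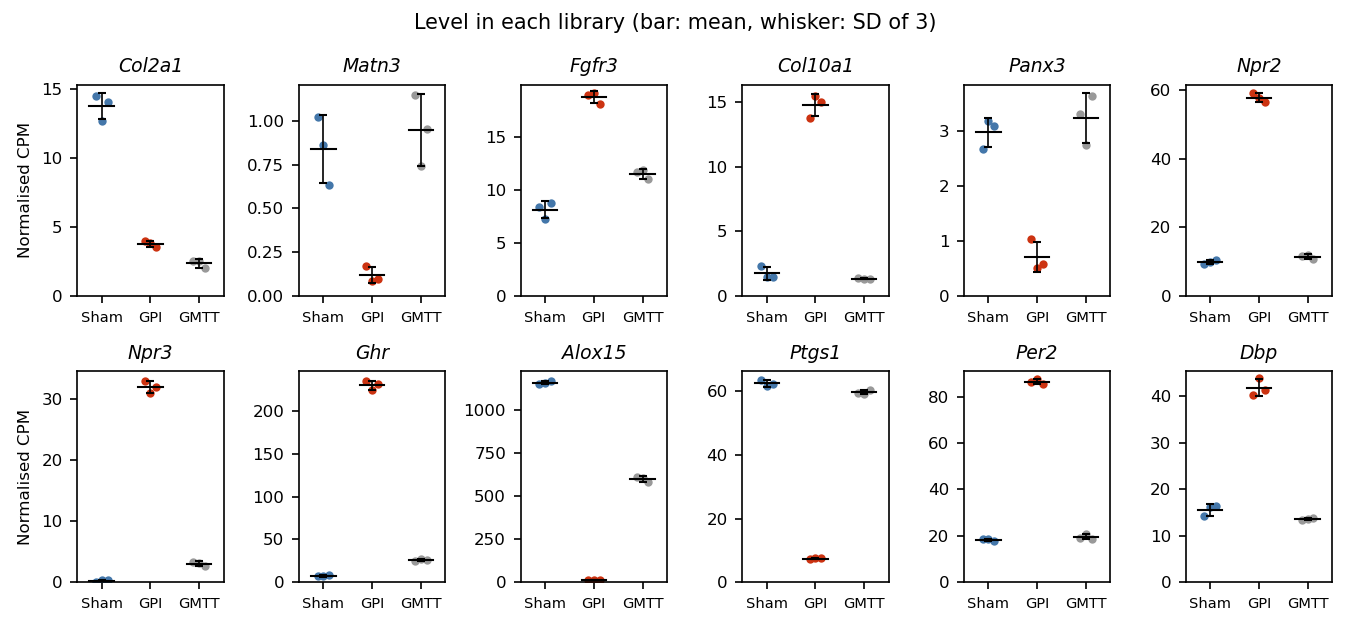
Normalised CPM (y axis, linear, from 0) of 12 genes in each library of Sham (blue), GPI (red) and GMTT (grey), with the mean as a bar and the SD of 3 libraries as whiskers. Col2a1, Matn3 and Panx3 are lower and Fgfr3, Col10a1, Npr2, Npr3 and Ghr higher in every GPI library than in any Sham library, as are the clock genes Per2 and Dbp, while Alox15 and Ptgs1 are lower.

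Genes of the hormones and receptors that control bone lengthening were mostly higher. Of 26 tested genes of growth hormone, insulin-like growth factor (IGF) and natriuretic signalling 21 rose and 4 fell (median 1.90; with library sizes only 17 and 8, median 0.77). Npr2, the receptor through which C-type natriuretic peptide promotes bone growth, stood at 9.36, 9.76 and 10.4 CPM in Sham and 59.2, 57.9 and 56.5 in GPI (2.55, SE 0.08). Npr3, the clearance receptor that removes the peptide, stood at 0.145, 0.344 and 0.363 and at 32.9, 31.0 and 31.9 (6.76, SE 0.17, or 108-fold). Both natriuretic receptors were thus higher in all GPI libraries, the clearance receptor by the larger factor.

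In the same list, the growth hormone receptor gene Ghr rose from 7.18, 7.35 and 8.85 CPM to 234, 224 and 231 (4.88, SE 0.07). Igf1, which mediates much of its action, stood at 43.1, 43.9 and 39.5 CPM and at 119, 99.5 and 111 (1.38, SE 0.07), and Stc2, stanniocalcin 2, which restrains IGF release, rose by 2.53 (SE 0.21). Pappa, the protease that stanniocalcin 2 inhibits, fell from 1.75, 1.46 and 1.91 CPM to 1.21, 0.599 and 0.978 (-0.87, SE 0.30), a call lost without GPI replicate 2 (-0.63). Ghr is also strongly expressed in muscle and fat, whose marker shares rose in the same libraries.

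Fibroblast growth factor (FGF) genes rose in number, with 21 higher and 2 lower of 25 (median 1.79; with library sizes only 14 and 6, median 0.66). Fgf9 went from 0.242, 0.258 and 0.227 CPM to 5.86, 6.59 and 5.67 (4.6, SE 0.26), and Fgf13, an intracellular member that binds sodium channels, rose by 6.09 (SE 0.16). Spry2, a feedback inhibitor of FGF receptor signalling, rose from 4.32, 5.46 and 4.90 CPM to 17.1, 17.5 and 17.4 (1.82, SE 0.11). Fgfr1 was 0.59 higher (SE 0.07), but -0.54 with library sizes only. Fgfr2, at 24.2 to 26.9 CPM in Sham and 24.3 to 33.5 in GPI, was not called (0.12, and -1.01 with library sizes only), although it was called without GPI replicate 2 (0.22). Fgf23, the phosphate-regulating hormone of osteocytes, had 99 counts over the Sham libraries and 3 over GPI, no more than the floor of 3 counts, so no fold is given; it stood at 7.17 to 8.39 CPM in GMTT.

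Genes that build and sulfate glycosaminoglycan chains had 14 higher and 15 lower of 35 and a median of 0.04, near the shares of 42.4% and 46.6% over all genes (with library sizes only 4 and 29, median -1.10). The chondroitin 4-sulfotransferases fell: Chst11 from 7.85, 7.27 and 6.81 CPM to 2.16, 1.20 and 2.05 (-2.02, SE 0.18), Chst12 by 3.41 (SE 0.10) and Chst13 by 4.37 (SE 0.29). The sulfate transporter Slc26a2 was 0.50 lower (SE 0.14). The heparan sulfate enzymes Ndst1, an N-sulfotransferase, and Extl3, which starts the chain, rose by 2.11 (SE 0.08) and 1.82 (SE 0.06). The sulfate donor synthase Papss2 rose by 1.25 (SE 0.11) and was not called with library sizes only. The groups did not overlap for Chst11, Chst12, Chst13, Ndst1 or Extl3.

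**Figure D4:**
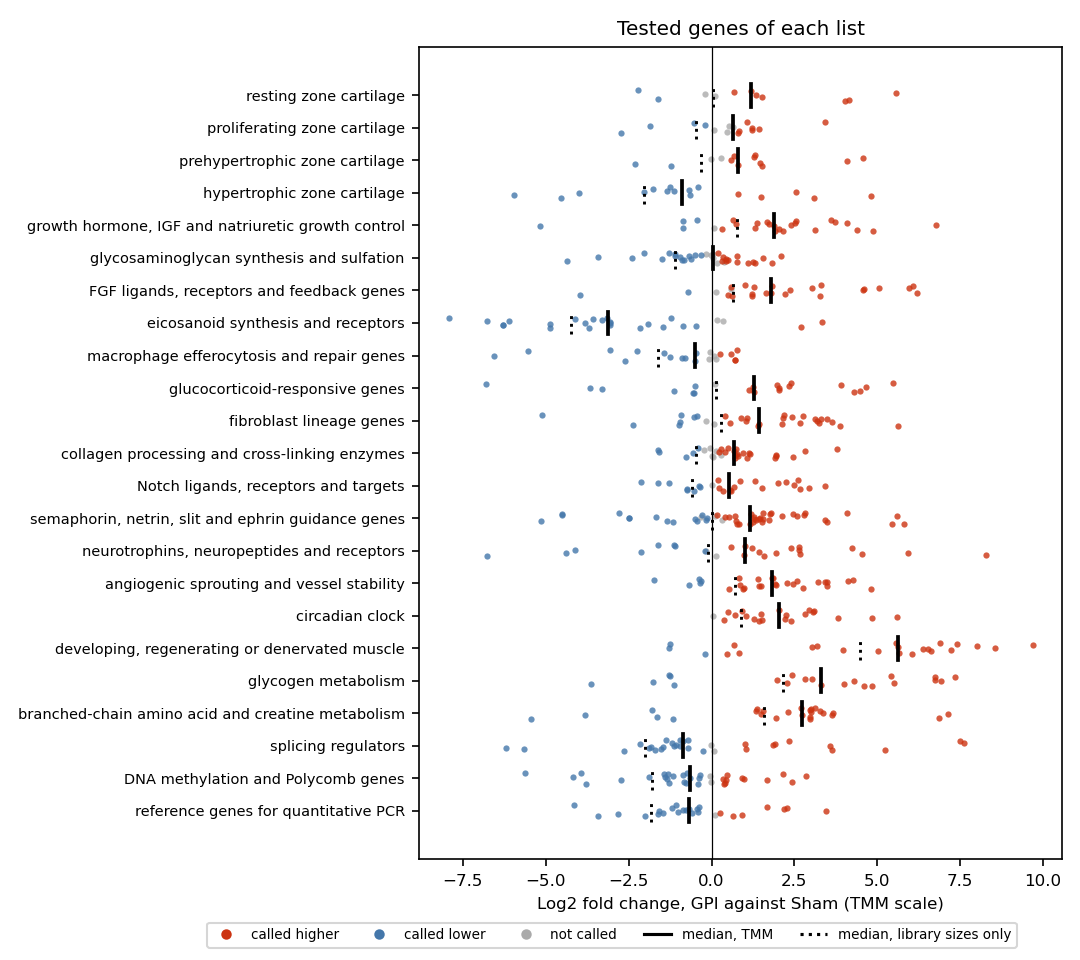
Log2 fold change of GPI against Sham (x axis, TMM scale) for each tested gene of 23 gene lists (y axis), red where called higher, blue where called lower and grey where not called; solid bars mark list medians and dotted bars the medians with library sizes only. Eicosanoid genes sit lowest, with a median of -3.11, and genes of developing, regenerating or denervated muscle highest, at 5.62.

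Transcripts of eicosanoid synthesis and reception, which serve inflammatory lipid signals, were mostly lower in GPI. Of 26 such genes 22 fell and 2 rose (median -3.11; with library sizes only 24 and 2, median -4.24). Alox15 (ENSRNOG00000019183; mRatBN7.2 chromosome 10, 55060412 to 55068874), the lipoxygenase that makes precursors of resolving mediators, stood at 1150, 1160 and 1170 CPM in Sham and 15.0, 14.0 and 15.4 in GPI (-6.30, SE 0.06). Alox5, which starts leukotriene synthesis, fell from 54.2, 47.9 and 53.2 CPM to 1.72, 1.71 and 1.86 (-4.87, SE 0.12), and the platelet lipoxygenase Alox12 by 6.78 (SE 0.12).

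Both cyclooxygenases were also lower. Ptgs1, the constitutive enzyme, stood at 63.6, 61.6 and 62.3 CPM in Sham and 7.33, 7.53 and 7.63 in GPI (-3.06, SE 0.08), and Ptgs2, the inducible enzyme, at 2.86, 2.62 and 2.54 and at 1.03, 1.11 and 1.27 (-1.23, SE 0.25). The 2 genes that rose were Ptges2, a prostaglandin E synthase (3.34, SE 0.09), and Hpgd, which inactivates prostaglandins (2.71, SE 0.33). Fpr2, a receptor for resolving lipids and peptides on myeloid cells, had 107 counts in Sham and none in GPI. Neutrophil, monocyte and macrophage marker shares fell in the same libraries.

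Macrophage genes of cell clearance and repair showed a range of changes, with 11 lower and 5 higher of 20 (median -0.49; with library sizes only 20 lower and none higher, median -1.63). Stab2, a scavenger receptor of sinusoidal vessels, fell by 5.55 (SE 0.15), and Cd163, the haemoglobin scavenger receptor, fell from 98.2, 94.1 and 94.8 CPM to 16.6, 13.3 and 16.7 (-2.62, SE 0.07). Mertk, a receptor for dying cells, fell by less, from 10.3, 13.1 and 9.94 CPM to 7.16, 7.96 and 8.41 (-0.51, SE 0.12). Trem2, a lipid-sensing receptor, was 0.89 lower (SE 0.31), and its Sham range of 1.07 to 1.86 CPM overlapped the GPI range of 0.604 to 1.11; the call was lost without GPI replicate 1 (-0.67). The GPI and Sham ranges of Mertk, Cd163 and Stab2 did not overlap.

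Glucocorticoid-responsive genes parted, with 13 higher and 7 lower of 21 (median 1.27; with library sizes only 10 and 8, median 0.14). Klf9 rose from 7.81, 9.37 and 7.94 CPM to 215, 216 and 213 (4.68, SE 0.07), and Zbtb16 from 2.04, 1.63 and 1.5 to 78.9, 77.4 and 75.3 (5.49, SE 0.10); both encode transcription factors. Tsc22d3, also called GILZ, rose by 2.34 (SE 0.05). Fkbp5, a chaperone of the receptor, stood at 120, 117 and 118 CPM in Sham and 81.2, 79.4 and 81.0 in GPI (-0.56, SE 0.05). The neutrophil granule gene Lcn2 and the annexin gene Anxa1, abundant in neutrophils, fell by 6.80 (SE 0.09) and 3.67 (SE 0.06).

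Fibroblast genes were mostly higher, with 21 higher and 7 lower of 30 (median 1.42; with library sizes only 16 and 12, median 0.29). Pdgfra, the receptor that marks fibroblasts and mesenchymal progenitors, stood at 19.2, 19.7 and 19.3 CPM in Sham and 51.4, 49.2 and 53.1 in GPI (1.4, SE 0.07). Col15a1, a basement membrane collagen of perivascular fibroblasts, rose from 20.9, 22.3 and 21.8 CPM to 243, 248 and 235 (3.48, SE 0.06). Cilp, a matrix protein of cartilage and fibrous tissue, rose from 1.89 to 2.47 CPM to 102 to 108 (5.62, SE 0.09), and Mfap5, a microfibril protein, by 3.88 (SE 0.16). Dpp4 and Thy1, which mark fibroblast subsets but also lymphoid cells, fell by 5.10 (SE 0.12) and 2.37 (SE 0.07).

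Enzymes that modify and cross-link collagen changed by smaller amounts. Of 31 tested, 20 rose and 5 fell (median 0.67), against 6 and 21 with library sizes only (median -0.46), so the balance of this list turned with the scaling. Lox, lysyl oxidase, rose from 3.39, 3.48 and 4.18 CPM to 14.9, 13.4 and 13.3 (1.91, SE 0.12), P4ha2, a prolyl hydroxylase subunit, by 2.81 (SE 0.08), and Tll1, a procollagen protease, by 3.80 (SE 0.18); these 3 were also higher with library sizes only. Serpinh1, the collagen chaperone HSP47, was 0.72 higher (SE 0.05), but -0.41 with library sizes only. Loxl4 and Ppib, a prolyl isomerase, each fell by 1.60, with SE 0.18 and 0.05. Zfp475, Snx1 and Snx22 overlap Lox or Ppib on the opposite strand, which leaves those values uncertain.

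Notch pathway genes had 16 higher and 8 lower of 25 (median 0.54; with library sizes only 8 and 16, median -0.59). Notch3, the receptor of mural cells and muscle progenitors, stood at 33.7, 32.0 and 36.6 CPM in Sham and 96.1, 101 and 95 in GPI (1.51, SE 0.07). The ligand Jag2 rose from 4.22, 4.64 and 4.81 CPM to 47.9, 53.0 and 44.8 (3.41, SE 0.10), and the target Heyl from 6.4, 5.80 and 6.85 to 49.0, 51.7 and 45.0 (2.94, SE 0.09). Notch2 moved the other way, from 125, 123 and 124 CPM to 44.3, 40.5 and 37.2 (-1.60, SE 0.06). The receptors therefore differed in direction on the TMM scale, and Notch3 kept its rise (0.38) with library sizes only.

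Vessel genes were mostly higher. Of 28 genes of angiogenic sprouting and vessel stability 23 rose and 5 fell (median 1.84; with library sizes only 18 and 8, median 0.70). Vegfa (ENSRNOG00000019598; mRatBN7.2 chromosome 9, 14955300 to 14970641), the main angiogenic ligand, stood at 24.7, 26.4 and 25.9 CPM in Sham, 720, 714 and 709 in GPI and 56.4, 55.1 and 55.0 in GMTT (4.80 for GPI against Sham, SE 0.05). Its receptor gene Kdr rose from 37.5, 36.8 and 36.8 CPM to 101, 97.4 and 101 (1.43, SE 0.06), the angiopoietin receptor Tek by 1.91 (SE 0.06), and the arterial transcription factor Sox17 by 4.26 (SE 0.12).

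The angiopoietin ligands of Tek differed in direction. Angpt1, which activates Tek, stood at 36.6, 40.1 and 36.5 CPM in Sham and 30.1, 27.7 and 30.3 in GPI (-0.36, SE 0.07), and Angpt4 fell by 1.74 (SE 0.34). Angpt2, which can block or activate Tek, stood at 6.69, 6.58 and 6.54 CPM and at 13.9, 12.1 and 12.9 (0.97, SE 0.11; -0.16 with library sizes only). Vegfc, a lymphatic growth factor, was 0.69 lower (SE 0.18). Beside these values the endothelial marker share was 0.0470% to 0.0494% in Sham and 0.0566% to 0.0593% in GPI.

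Guidance genes, which steer axons and vessels, had 32 higher and 14 lower of 49 (median 1.15; with library sizes only 20 and 23, median 0.02). Sema3c, a secreted semaphorin, rose from 3.73, 3.83 and 2.63 CPM to 171, 155 and 173 (5.61, SE 0.10), and the membrane-bound Sema6c from 2.67, 2.97 and 3.27 to 160, 177 and 163 (5.81, SE 0.09). Ntn1, netrin 1, rose by 3.43 (SE 0.15), and Efnb2, the ephrin of arterial endothelium, by 2.47 (SE 0.15). Slit2 fell from 25.8, 25.6 and 23.9 CPM to 13.1, 9.07 and 11.4 (-1.16, SE 0.10), and Sema4a and Plxnc1, both of immune cells, by 5.13 (SE 0.12) and 4.50 (SE 0.10).

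Of 25 genes of neurotrophins, neuropeptides and their receptors 15 rose and 8 fell (median 1.02; with library sizes only 10 and 11, median -0.10). Cntfr, the receptor for ciliary neurotrophic factor and a muscle gene as well, led the list at 8.27 (SE 0.11). Bdnf, at 0.817 to 1.55 CPM in Sham and 1.03 to 1.47 in GPI, was not called (0.12, 95% confidence interval -0.50 to 0.75; -1.0 with library sizes only). Ramp3, a partner of the adrenomedullin receptor, fell from 9.65, 7.87 and 9.49 CPM to 0.517, 0.257 and 0.489 (-4.40, SE 0.26).

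Circadian clock genes rose almost together. Of 21 tested genes 20 rose and none fell, with 1 not called (median 2.03; with library sizes only 15 and 4, median 0.89). Per2, a repressor of the clock, stood at 18.7, 18.5 and 17.7 CPM in Sham, 86.1, 87.5 and 85.5 in GPI and 19.3, 20.9 and 18.9 in GMTT (2.24, SE 0.06). Its activator Bmal1 rose from 6.30, 6.02 and 5.54 CPM to 15.6, 18.2 and 16.5 (1.5, SE 0.11), although the 2 normally peak at opposite times of day. Dbp, an output gene, rose from 14.2, 16.1 and 16.5 CPM to 40.3, 43.9 and 41.3 (1.42, SE 0.08).

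The nuclear receptor arm of the clock rose too. Rora went from 0.339, 0.215 and 0.0908 CPM to 12.1, 9.33 and 10.5 (5.60, SE 0.25), and Npas2, a partner of Bmal1, rose by 4.85 (SE 0.34) from 10 counts in Sham to 153 in GPI. Nr1d1, REV-ERB alpha, rose by 1.53 (SE 0.10), but it overlaps Thra, a thyroid hormone receptor gene on the opposite strand that itself rose by 1.92 (SE 0.08), so its value is uncertain. The labels give day 7 for all groups and do not state the time of day of sampling.

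Genes of developing, regenerating or denervated muscle rose beside the mature muscle markers. Of 23 tested 20 rose and 3 fell (median 5.62; with library sizes only 17 and 5, median 4.49). Myog, myogenin, the factor of differentiating myoblasts, stood at 0.533, 0.645 and 0.590 CPM in Sham and 29.1, 31.1 and 28.0 in GPI (5.62, SE 0.15). The embryonic myosin gene Myh3 rose from 6.64, 5.89 and 5.76 CPM to 402, 399 and 399 (6.04, SE 0.07), and the perinatal gene Myh8 by 8.00 (SE 0.23) from 6 counts in Sham to 837 in GPI. The changes of Myog and Myh3 lay near the list's median.

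Other genes of this list changed little or fell. Chrng, the fetal subunit of the muscle acetylcholine receptor, stood at 95.6, 93.7 and 93.2 CPM in Sham and 133, 132 and 124 in GPI (0.46, SE 0.05; -0.67 with library sizes only). Its annotated row spans mRatBN7.2 chromosome 9, 87878085 to 87914482. Whether that row also holds reads of neighbouring genes was not tested. Gadd45a, induced in denervated muscle and by stress, fell from 75.1, 79.1 and 78.9 CPM to 29.8, 31.8 and 35.4 (-1.27, SE 0.07), and Runx1, also a blood cell regulator, by 1.25 (SE 0.10). These 3 genes lay far below the list's median.

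Glycogen genes were mostly higher. Of 21 glycogen genes 16 rose and 5 fell (median 3.30; with library sizes only the same counts, median 2.17). The muscle phosphorylase gene Pygm stood at 60.1, 55.4 and 62.8 CPM in Sham and 6380, 6620 and 6270 in GPI (6.76, SE 0.06), while the liver and leukocyte form Pygl fell from 142, 140 and 138 CPM to 10.0, 11.6 and 12.4 (-3.63, SE 0.07). The glycogen synthase gene Gys1 rose by 4.61 (SE 0.06) and the targeting subunit Ppp1r3c by 7.36 (SE 0.08).

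Of 25 genes of branched-chain amino acid and creatine metabolism 20 rose and 5 fell (median 2.72; with library sizes only 18 and 5, median 1.59). Ckmt2, mitochondrial creatine kinase, rose from 21.0, 23.6 and 22.1 CPM to 3100, 3270 and 3120 (7.15, SE 0.06). Bcat2, which starts the breakdown of branched-chain amino acids, rose by 1.55 (SE 0.06), while Slc7a5, a transporter of large amino acids in dividing cells, fell from 116, 106 and 117 CPM to 2.67, 2.57 and 2.45 (-5.46, SE 0.10). Gatm, which makes the creatine precursor, fell by 1.65 (SE 0.07).

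Splicing regulators fell more often than they rose, with 19 lower and 10 higher of 31 (median -0.86; with library sizes only 21 and 8, median -2.00). Ptbp1, a repressor of tissue-specific exons, fell from 291, 293 and 295 CPM to 44.4, 49.7 and 47.3 (-2.64, SE 0.05). The muscle regulators Rbm24 and Rbfox1 rose by 7.62 (SE 0.09) and 7.49 (SE 0.09), from 0.970 to 1.5 and 1.76 to 2.77 CPM to 240 to 254 and 407 to 435. Mbnl1, the muscleblind factor, stood at 457, 496 and 422 CPM in Sham and 500, 470 and 492 in GPI and was not called (0.09, 95% confidence interval -0.06 to 0.24), although it was 1.04 lower with library sizes only and called without Sham replicate 2 (0.15). Its relative Mbnl3 fell by 6.21 (SE 0.26), from 760 counts in Sham to 5 in GPI.

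DNA methylation and Polycomb genes had 20 lower and 11 higher of 33 (median -0.66; with library sizes only 29 and 4, median -1.80). The maintenance methyltransferase gene Dnmt1 fell from 253, 244 and 254 CPM to 18.5, 18.0 and 17.7 (-3.79, SE 0.06), and its recruiter Uhrf1 by 5.62 (SE 0.08). Dnmt3a, a de novo methyltransferase, rose from 10.6, 9.59 and 9.53 CPM to 76.1, 68.6 and 71.7 (2.86, SE 0.08), and the demethylase Tet1 by 2.41 (SE 0.17). Ezh2, the Polycomb methyltransferase of dividing cells, fell by 4.18 (SE 0.07) and Ezh1, that of resting cells, by 0.74 (SE 0.05).

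By the transcription factor families of the deposited annotation, 464 of 1058 such genes rose and 464 fell, with a median of -0.02 (with library sizes only 234 and 727, median -1.15). E2F factors, which drive the cell cycle, fell in 9 of 10 (median -2.68), interferon regulatory factors in 8 of 10 (-1.51), MYB genes in 16 of 22 (-0.98) and ARID genes in 12 of 14 (-0.63). Homeobox genes rose in 49 of 74 and fell in 19 (median 1.5; with library sizes only 37 and 27, 0.37), and thyroid hormone receptor-like nuclear receptors rose in 11 of 15 (1.90; with library sizes only 9 rose and 6 fell, 0.77). Zinc finger genes of the C2H2 type rose in 157 and fell in 200 of 437 (with library sizes only 54 and 337), near the 42.4% and 46.6% over all genes on the TMM scale.

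Genes commonly used as references for quantitative PCR differed between these groups. Of 25 tested 7 rose and 17 fell (median -0.68; with library sizes only 4 and 21, median -1.82). Actb, beta actin, stood at 2970, 3020 and 3070 CPM in Sham and 740, 780 and 756 in GPI (-1.99, SE 0.04), and Sdha rose from 144, 136 and 149 to 1550, 1620 and 1530 (3.45, SE 0.05). Hprt1 stood at 79.8, 77.5 and 78.1 CPM in Sham and 58.4, 58.1 and 57.7 in GPI (-0.43, SE 0.06), the smallest change among those named here. With library sizes only its change was -1.57. On the TMM scale 1 other gene of the 25 was not called. Sdha encodes a subunit of the respiratory chain.

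Ratios of related genes within a library do not depend on scaling between libraries. For 22 pairs, the log2 ratio of counts per length was taken of a muscle form over another form, here called the broad form. Not all broad forms are expressed evenly across tissues, such as Pygl, the liver and leukocyte form of phosphorylase. In all 22 the ratio was higher in every GPI library than in any Sham library. The difference in this ratio had a median of 6.90 and ran from 1.49 (Cox7a1 over Cox7a2) to 10.39 (Pygm over Pygl). The ratio of Ckm over Ckb, the muscle and brain creatine kinases, was 0.67, 0.60 and 0.53 in Sham, 9.41, 9.15 and 9.28 in GPI and 3.45, 3.5 and 3.62 in GMTT. The muscle form rose and the broad form fell in 19 of the 22 pairs, and all 22 muscle forms rose, with a median log2 fold change of 6.06 against -1.23 for their partners (with library sizes only 1 partner was higher and 20 lower, median -2.37). Over all 14105 genes 42.4% rose and 46.6% fell. Levels of single genes lay above Sham without overlap in 42.6% and below in 46.8%.

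The ratio moved the other way in 18 pairs of a form taken as that of blood cells and a broad form. Not all of the blood cell forms are confined to blood, such as Ezh2, the methyltransferase of dividing cells. In all 18 the ratio was lower in every GPI library than in any Sham library, with a median difference of -5.94. The smallest difference was -3.32 (Hk3 over Hk1). Pklr over Pkm lay lowest, but Pklr had 1 count in GPI, so its ratio there depends on the added 0.5 count and is not given; the next was Fermt3 over Fermt2, at -10.01. Rac2 over Rac1, GTPases of blood cells and of most cells, stood at 0.73, 0.68 and 0.84 in Sham and -6.11, -5.72 and -5.58 in GPI. Ezh2 over Ezh1 stood at 1.15, 1.10 and 1.08 in Sham and -2.34, -2.32 and -2.29 in GPI. The blood form fell in all 18, with a median of -5.32. The broad partner rose in 10, fell in 6 and was not called in 2, with a median of 0.42. These counts stand against 42.4% higher and 46.6% lower over all genes, and 46.8% of single genes lay below Sham without overlap. With library sizes only, 6 broad partners were higher and 12 lower (median -0.71), so their balance rests on the scaling although the ratios do not. With 3 libraries against 3 an exact two-sided permutation test cannot go below 0.1, the value that each pair reached.

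**Figure D5:**
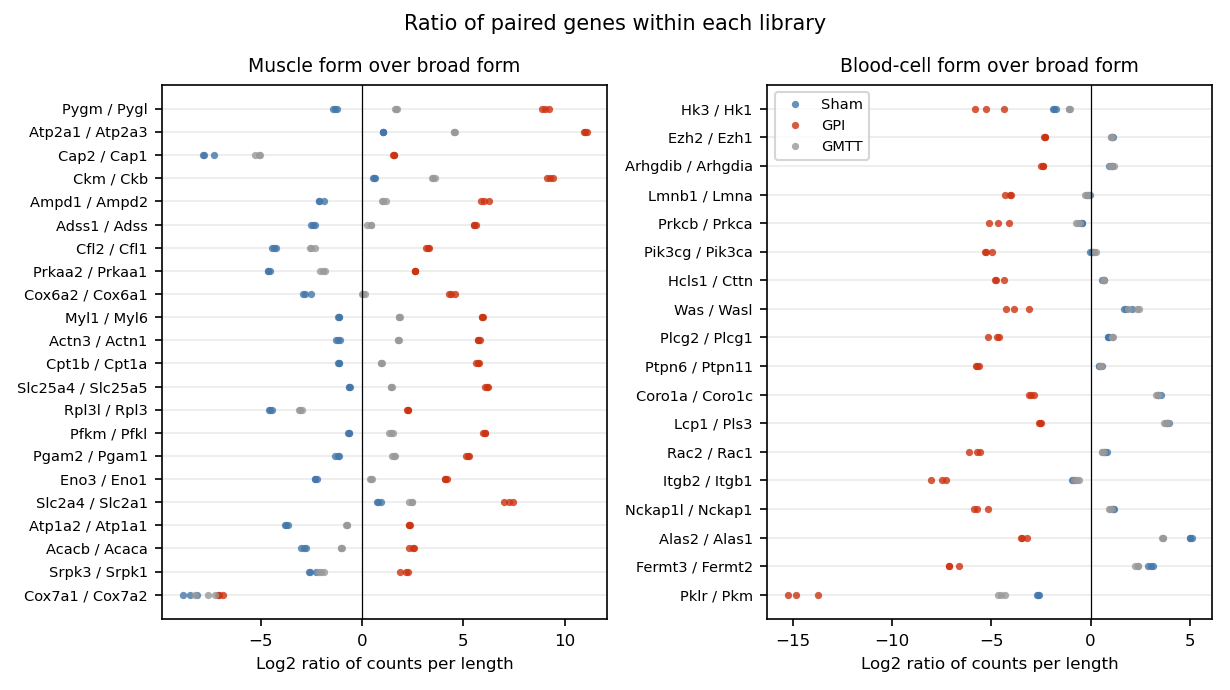
Log2 ratio of counts per gene length (x axis) of a muscle form over a broad form (left, 22 pairs) and of a blood cell form over a broad form (right, 18 pairs), with 1 point per library of Sham (blue), GPI (red) and GMTT (grey). All GPI points lie to the right of the Sham points on the left panel and to the left of them on the right panel.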

How the data were processed

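Whole-number read counts per gene were deposited by the authors, with FPKM values per gene beside them. Per the submitters' processing notes, reads were placed on mRatBN7.2. FPKM deposited by the authors served only as an alternative unit. No aligner, counter or strand setting is given in the sources used here. Near-identical gene copies, and genes that overlap another on the opposite strand, therefore have uncertain values (among those named, also Ckm, Cox7a1, Extl3, Ezh2, Hk3, Pklr, Ptbp1 and Tek). Counts of the 9 libraries (3 per group) were fitted in edgeR 4.0.16 (R 4.3.3) as 1 model of 3 groups, with TMM scaling and robust quasi-likelihood F tests, two-sided, on 15999 genes with at least 10 counts in at least 3 libraries; the coefficient of variation between libraries that edgeR estimates had a median of 5.09%. The members and the gene lists were chosen with earlier results of these data known, so no list has a test. Named genes were the key genes of each list, up to 2 highest and 2 lowest called genes per list, pair genes, the 20 highest and 20 lowest changes at a mean log2 CPM of at least 3, and the most abundant genes; Nt5dc1, Thra, Ihh, Col9a1, Snorc, Epyc, Vpreb1, Ocstamp and Krt5 were named after their values were seen. Replicate numbers were not used to pair the libraries in the main model. Alternatives were another scaling, DESeq2 1.42.0, 3 low-count filters, 6 libraries, limma 3.58.1 on log2(FPKM + 1) and log2(FPKM + 0.1), and leaving out each library. The test was checked on simulated data. Figures were drawn with matplotlib 3.10.9.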

Additional observations from a re-analysis of the deposited data

How the results depend on the processing

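With library sizes only, 3175 genes were called higher and 9937 lower, against 5987 and 6578 with TMM scaling. Under the other settings that kept all 14105 genes (median-of-ratios scaling, TMM without tissue genes, DESeq2, no low-count filter, 6 libraries and limma on FPKM) between 5771 and 6049 were higher and between 6379 and 6768 lower. A minimum of 5 CPM left 11623 genes, with 4919 higher and 5643 lower. Leaving out each library in turn gave 5758 to 5925 higher and 6426 to 6637 lower. With a replicate block the counts were 5945 and 6529. Same-numbered GPI and Sham libraries correlated in their deviations at 0.0965, -0.18 and -0.128, and differently numbered ones at -0.128 to 0.249. With 3 libraries per group these values cannot decide whether the replicate numbers pair the libraries. With library sizes only, Fgfr1 turned to -0.54, Serpinh1 to -0.41, Angpt2 to -0.16 and Chrng to -0.67, and the uncalled Bdnf to -1.0, Fgfr2 to -1.01 and Mbnl1 to -1.04. Of 160 named genes, 150 kept direction and call with library sizes only, and all tested did under each other setting that kept every library. Leaving out 1 library lost the calls of Pappa and Trem2 and gained those of Fgfr2 and Mbnl1. Low counts limit the genes with few or no counts in 1 group, whose changes are bounds or carry SEs that can be too small.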
